A study of Rattus norvegicus with 23 samples.

Results

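The glucocorticoid receptor gene Nr3c1 and 8 genes of its response were followed through all 23 sequenced rat femur libraries and their 5 groups. The members are Nr3c1, Hsd11b1, Fkbp5, Tsc22d3, Sgk1, Zbtb16, Dusp1, Klf9 and Cdkn1a, chosen by name out of 30562 rows in the deposited tables. By gene name 8 of the 9 were found, and Dusp1 was taken from the row ENSRNOG00000069024, whose description names it but whose name field repeats the identifier. All samples were femora of female Wistar rats, processed as polyadenylated RNA. The healthy control group (n = 4) carries "standard" and "oLN" in its titles and received saline. The remaining groups share the model called MetOP (metabolic osteoporosis), in which L-NAME, which blocks nitric oxide synthase, was given on top of a high-fat diet, and received saline (n = 5), semaglutide (n = 5), PYY3-36 (n = 4, called PYY below) or semaglutide and PYY (n = 5). Their titles also carry "lfd", which the labels do not explain, and the treatment labels of the PYY libraries count upward from PYY3-36 while their titles are alike. Doses, treatment times and ages are not in the sources used here. Because diet and L-NAME came together, their separate parts in any difference from the healthy control cannot be told apart.

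Glucocorticoids such as corticosterone enter cells and bind Nr3c1, which sits in the cytoplasm with heat shock proteins and the immunophilin Fkbp5 until hormone releases it to the nucleus. There it binds DNA or other factors and changes transcription of a broad set of genes, many of which restrain inflammation or the receptor itself. Hsd11b1 regenerates active hormone from its inert keto form inside cells. In bone, excess glucocorticoid is a known cause of bone loss, with lower osteoblast activity, which is why these genes are of interest in a model of osteoporosis. Semaglutide activates the receptor for the gut hormone GLP-1, and the peptide PYY3-36 signals through neuropeptide Y receptors.

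None of the 9 genes differed between groups after adjustment over all genes tested. Against MetOP saline, 2 members had an unadjusted p under 0.05, Sgk1 with semaglutide, where 11.4% of all tested genes were under that p, and Hsd11b1 with the combination, where 3.06% were. Sgk1, a kinase that regulates ion transport and is induced within minutes to hours of hormone, was 0.659-fold the MetOP saline level with semaglutide, with a log2 fold change of -0.60 ± 0.25 (SE). Hsd11b1 was 0.366-fold the MetOP saline level with semaglutide and PYY, with a log2 fold change of -1.45 ± 0.54, and its libraries in these groups did not overlap, as was so for 0.399% of all tested genes. The receptor itself stayed between group means of 35.2 and 43.5 CPM (the gene's counts relative to library size, after scaling by TMM, a method that equalises libraries on the bulk of their genes). The 9 genes did not share a direction in any of the comparisons. Of the 9, 7 had higher and 2 lower fitted values in MetOP saline than in the healthy control, 4 higher and 5 lower with semaglutide than with saline, 6 higher and 3 lower with PYY, and 2 higher and 7 lower with the combination.

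Total counts ran from 19.25 to 40.65 M per library. Mitochondrially encoded genes took 46.1% to 83.9% of them, which left 4.28 to 16.1 M counts for all others. Markers of osteoblasts, osteoclasts, skeletal muscle, blood cells, fibroblasts and vessels were all detected, so the libraries hold RNA of bone, marrow and attached muscle. Summed skeletal muscle markers ran from 1785 to 77578 CPM, and 2 libraries stood low on them, semaglutide and PYY library A320 and PYY library A216. In such bulk samples, fewer cells of a type and less RNA per cell cannot be told apart. Where a library had 0 counts of a gene, its true level could, by counting error alone, be as high as 3 counts, which is 0.0594 to 0.200 CPM depending on the library.

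In the deposited table, on the build mRatBN7.2, Nr3c1 (ENSRNOG00000014096) lies on the minus strand at chr18:31271681-31393375 and Hsd11b1 (ENSRNOG00000005861) on the minus strand at chr13:104728539-104788687. Fkbp5 (ENSRNOG00000022523) is at chr20:6457216-6541674, Tsc22d3 (ENSRNOG00000056135) at chrX:104217925-104276861, Sgk1 (ENSRNOG00000011815) at chr1:22980261-23098283 and Zbtb16 (ENSRNOG00000029980) at chr8:48994566-49177011, all on the minus strand. Dusp1 is at chr10:16681808-16683120, Klf9 (ENSRNOG00000014215) at chr1:220700108-220725037 and Cdkn1a (ENSRNOG00000000521) at chr20:7149217-7159585, all on the plus strand. All 9 are protein coding, and values count reads over the whole gene. The span of Hsd11b1 holds a small nucleolar RNA gene on the opposite strand, LOC120096391, which had 0 counts over all libraries. No other gene of the table overlaps a member.

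Promoter sequences are given here for Sgk1 and Fkbp5, the members that varied together most closely across libraries, for Klf9, whose interaction is described below, and for Dusp1, the member with the most motif matches. They come from RefSeq on the build GRCr8, which differs from that of the counts, and run from 250 bases before to 50 bases after an annotated start, in the direction of the gene. Of the 9 genes 7 had such windows, 12 in all, of which 4 are printed. Sgk1 has 3 windows, and the first listed is shown. Hsd11b1 and Zbtb16 are named only. Capitals mark, on either strand, the TATA box with the letters TATAAA, the core of the cyclic AMP response element with the letters TGACG, and the E-box with the letters CACGTG.
Sgk1, chr1:24804782-24805081, minus strand: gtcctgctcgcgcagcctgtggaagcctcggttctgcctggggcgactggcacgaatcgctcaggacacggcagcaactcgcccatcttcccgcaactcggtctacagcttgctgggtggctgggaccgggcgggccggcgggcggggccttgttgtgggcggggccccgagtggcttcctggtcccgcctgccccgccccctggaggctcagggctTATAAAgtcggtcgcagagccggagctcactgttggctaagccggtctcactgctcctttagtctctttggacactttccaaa
Fkbp5, chr20:6543506-6543805, minus strand: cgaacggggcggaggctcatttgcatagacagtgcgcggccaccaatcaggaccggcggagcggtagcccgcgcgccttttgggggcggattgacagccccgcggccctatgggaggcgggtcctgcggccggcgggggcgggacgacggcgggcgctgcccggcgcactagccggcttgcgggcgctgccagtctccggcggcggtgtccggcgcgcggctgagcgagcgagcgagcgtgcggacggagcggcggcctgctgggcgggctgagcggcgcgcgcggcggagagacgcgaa
Klf9, chr1:230126396-230126695, plus strand: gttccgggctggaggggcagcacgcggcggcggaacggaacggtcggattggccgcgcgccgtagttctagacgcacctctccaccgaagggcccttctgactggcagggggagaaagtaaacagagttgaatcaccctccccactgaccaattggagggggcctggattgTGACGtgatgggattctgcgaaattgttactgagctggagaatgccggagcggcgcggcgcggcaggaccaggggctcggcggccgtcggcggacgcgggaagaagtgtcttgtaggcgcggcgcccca
Dusp1, chr10:17184603-17184902, plus strand: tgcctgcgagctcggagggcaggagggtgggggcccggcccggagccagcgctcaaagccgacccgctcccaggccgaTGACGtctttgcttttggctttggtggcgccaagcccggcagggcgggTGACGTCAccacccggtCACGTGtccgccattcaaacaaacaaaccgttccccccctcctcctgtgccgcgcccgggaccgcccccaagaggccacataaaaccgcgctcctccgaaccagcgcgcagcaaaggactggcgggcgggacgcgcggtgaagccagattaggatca
None of the 12 windows held the hexamer TGTTCT, the core of the receptor's DNA site, on either strand, whereas 20.7% of 33469 windows of 300 bases did. None held the paired site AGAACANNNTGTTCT with up to 2 letters off, which 1.87% of all windows did. The share of G and C letters differed, with a median of 51.7% over all windows. It ran from 40.7% to 79% over the 12 windows and from 65.3% to 77% over the 4 printed ones. Windows of the same gene are also not independent. The part of base composition in these shares was not tested. The printed Sgk1 window holds TATAAA 33 bases before the start, a motif found in 14.2% of windows. The third Sgk1 window holds it 55 bases before its start and the second does not hold it. The Dusp1 window holds the full palindrome TGACGTCA 124 bases before the start (1.83% of windows) and, not overlapping it, CACGTG (6.42%). Klf9 holds the core TGACG 79 bases before the start (21.2% of windows), and the Fkbp5 window holds none of these letters. These are matches of letters in short windows, with no measurement of binding.

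Compared per length of the gene model, the members spanned about 2 orders of magnitude. Deposited FPKM (fragments scaled to gene length and depth) had medians over the 23 libraries of 41.7 for Dusp1, 18.7 for Tsc22d3, 4.82 for Cdkn1a, 4.12 for Sgk1, 4.05 for Klf9, 2.16 for Fkbp5, 2.13 for Nr3c1, 0.504 for Zbtb16 and 0.364 for Hsd11b1. Dusp1 stood above 97.1% of the tested genes by this median and Hsd11b1 above 23.7%. The lengths used for these values ran from 952 bases for Dusp1 to 16852 for Nr3c1, so the ranking depends on the gene models. Neighbours in this order had library ranges that overlapped, except Tsc22d3 (10.5 to 46.1) and Cdkn1a (1.58 to 10.4).

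**Figure D1:**
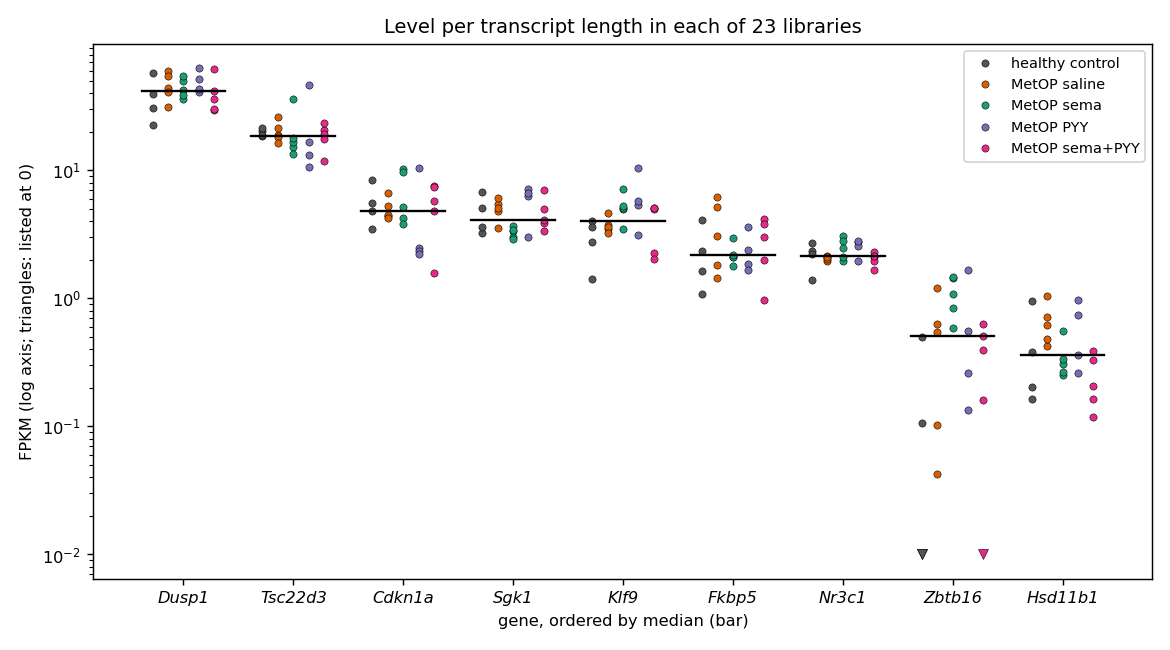
Level of each gene in FPKM (log axis) in each library, coloured by group, with genes ordered by their median over 23 libraries (bar) and triangles for libraries listed at 0. Dusp1 and Tsc22d3 lay highest, with medians of 41.7 and 18.7, and Zbtb16 and Hsd11b1 lowest, with medians of 0.504 and 0.364.

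Each comparison was tested gene by gene over 15271 genes with edgeR, and the members' counts are read here against the share of all tested genes. At an adjusted p under 0.05, 0 of the 9 members were called in each of the 8 comparisons, against 0% of all tested genes in 7 of them and 0.00655% (1 gene) for semaglutide against PYY. Limma voom and limma on FPKM also called 0 of the 9 in each of the 8, and at most 1 of all genes. DESeq2 called 0 members too, although for PYY against MetOP saline it gave Hsd11b1 and Zbtb16 no adjusted p. Over all genes with an adjusted p, DESeq2 called 504 (4.33%) for semaglutide against PYY, 97 (0.662%) for semaglutide against MetOP saline, 50 (0.304%) for MetOP saline against the healthy control and 5 to 14 in each of the other comparisons. Of the 72 member tests 6 had an unadjusted p under 0.05, and the smallest adjusted p was 0.169. For MetOP saline against the healthy control this count was 0 of 9, against 6.55% of all genes. It was 1 of 9 (Sgk1) for semaglutide against MetOP saline, where 11.4% of all genes were under that p, and 0 of 9 for PYY against MetOP saline, against 4.85%. For the combination against MetOP saline it was 1 of 9 (Hsd11b1), against 3.06%. Between the drug groups it was 1 of 9 (Sgk1) for semaglutide against PYY (16.9% of all genes), 0 of 9 for the combination against semaglutide (5.65%) and 1 of 9 (Hsd11b1) for the combination against PYY (6.24%). The interaction, the departure of the combination from the sum of the separate drug effects, gave 2 of 9 (Nr3c1 and Klf9), against 4.58%. With 9 genes, counts of 0 to 2 are not read as a result about the members.

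**Figure D2:**
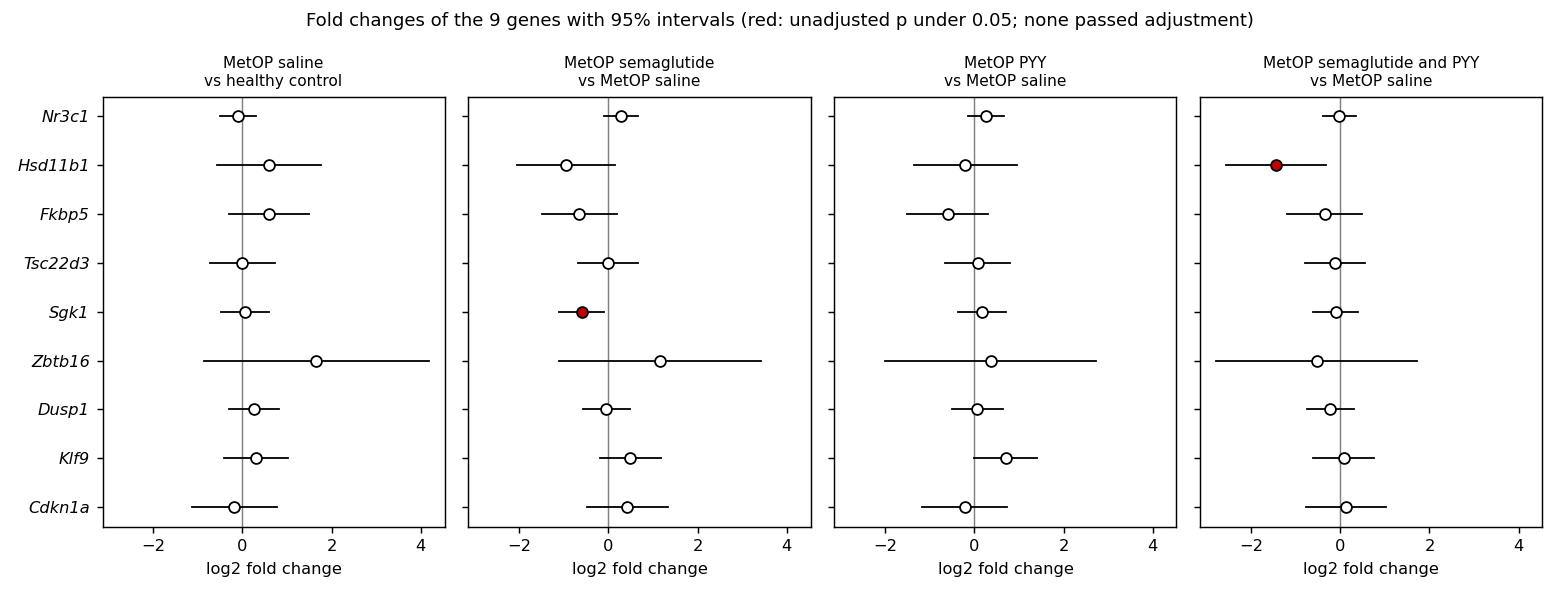
Log2 fold change of each gene (point) with its 95% interval (line) in the 4 comparisons that involve MetOP saline, red where the unadjusted p was under 0.05. Sgk1 with semaglutide (-0.60) and Hsd11b1 with the combination (-1.45) are the red points, and the intervals of Zbtb16 are the widest.

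Complete separation of the libraries of compared groups was rare, and with 9 genes its counts are not read as a result about the members. It was found for 1 of 9 (Hsd11b1) for the combination against MetOP saline, where 0.399% of all genes (61) did not overlap. It was found for 0 of 9 in each of the other comparisons of groups, with shares over all genes of 2.78% for MetOP saline against healthy control, 4.47% for semaglutide and 1.93% for PYY against MetOP saline, 5.87% for semaglutide against PYY, and 0.570% and 1.59% for the combination against semaglutide and against PYY. When the group means of each member were put in order, neighbours overlapped in all 36 pairs.

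**Figure D3:**
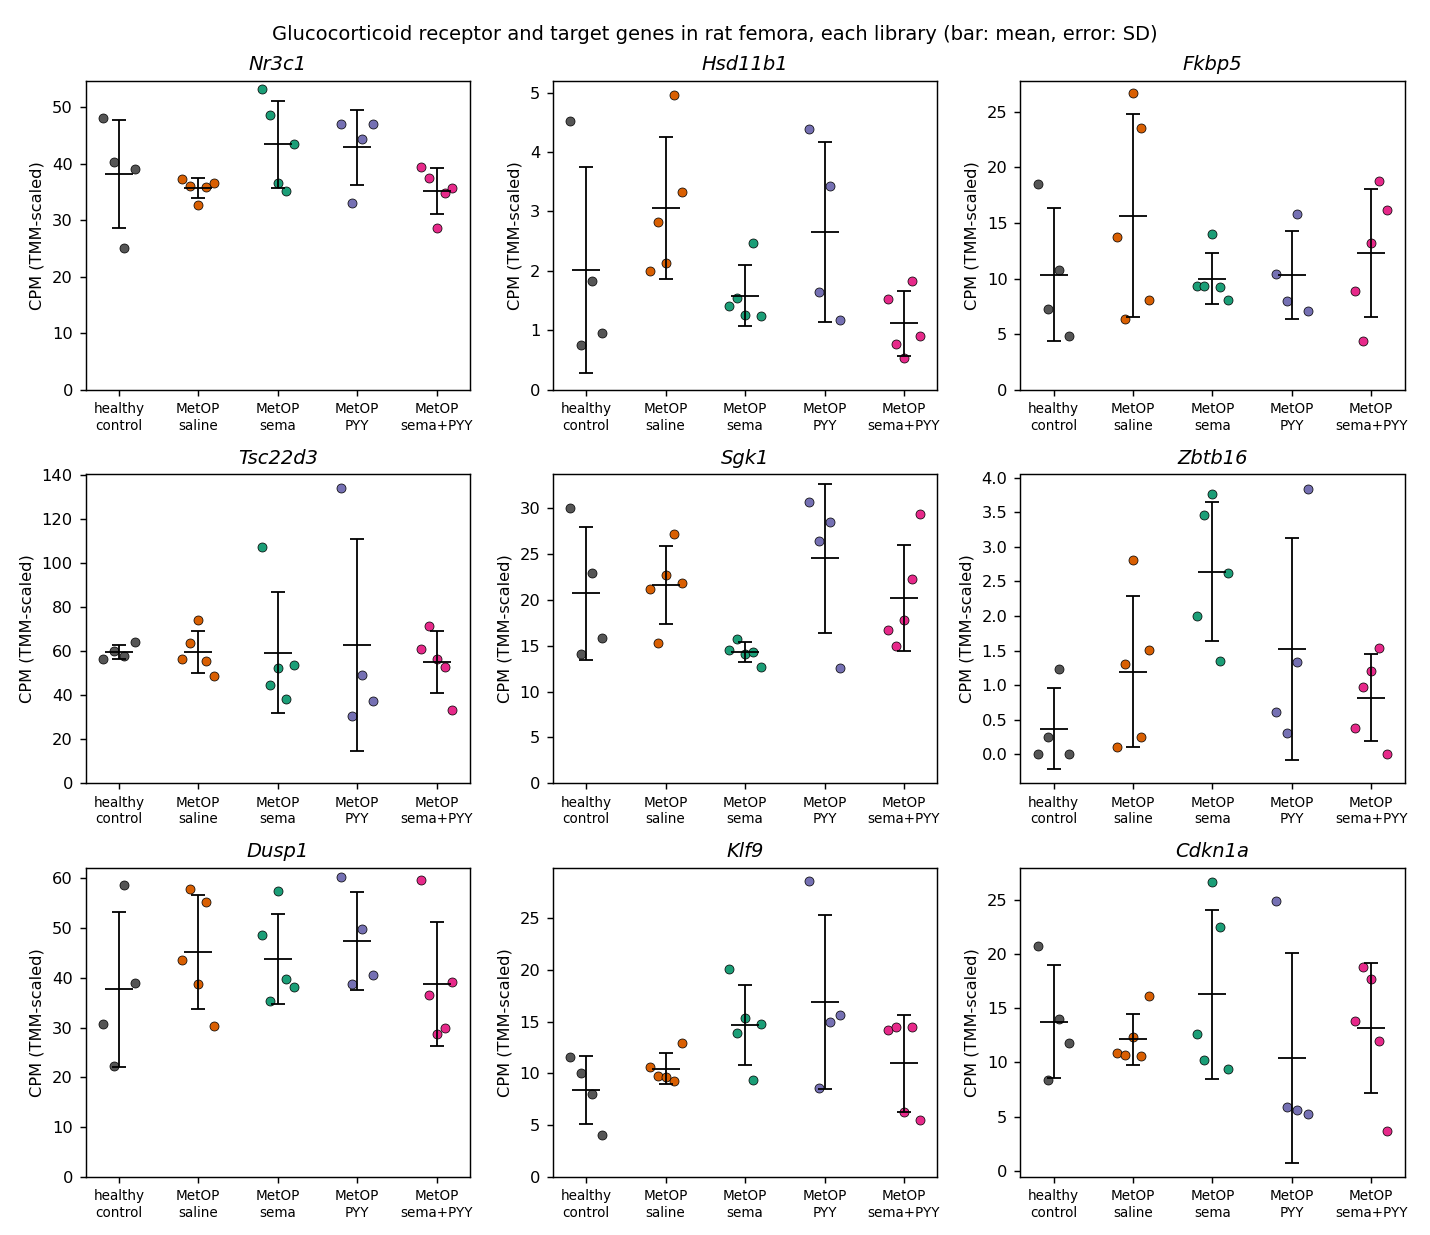
Scaled CPM of each gene in every library (points) by group, with the mean (bar) and SD (error line) of each group. The 5 semaglutide libraries of Sgk1 lie close together between 12.7 and 15.7, and the combination libraries of Hsd11b1 lie below all MetOP saline libraries.

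Nr3c1, the receptor, was the steadiest member, with a coefficient of variation of 17.4% over all libraries. The healthy control libraries measured 48.1, 40.4, 25.1 and 39.2 CPM. The MetOP saline libraries measured 37.4, 36.1, 32.7, 35.9 and 36.6 CPM, the semaglutide libraries 53.3, 48.7, 36.7, 35.2 and 43.6. The PYY libraries measured 47.1, 33.1, 44.4 and 47.1 CPM and the combination libraries 39.5, 37.5, 28.7, 34.8 and 35.7. All groups overlapped, with the saline group the tightest (35.7 ± 1.81, SD) and the healthy control the widest (38.2 ± 9.57). MetOP saline differed from the healthy control by -0.10 ± 0.19 (log2), with a 95% interval of -0.50 to 0.30. Semaglutide and PYY alone had values of 0.28 ± 0.18 and 0.26 ± 0.19 against MetOP saline, and the combination -0.02 ± 0.18. The interaction was -0.57 ± 0.27 (unadjusted p = 0.0429, adjusted p = 0.999, edgeR). The unadjusted p went above 0.05 when any of 11 libraries was left out, up to 0.0762 without combination library A253 (-0.50).

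Hsd11b1, which makes active hormone inside cells, was the least abundant member per length by the median over all libraries. In the healthy control and MetOP saline, Zbtb16 had the lower mean FPKM. Counts of Hsd11b1 ran from 14 to 151 per library. MetOP saline libraries measured 2.0, 2.83, 2.14, 4.96 and 3.33 CPM, and combination libraries 1.53, 0.77, 0.54, 1.84 and 0.91. Every combination library lay below every saline library. The fold was 0.366 of saline, with a 95% interval of the log2 fold change of -2.57 to -0.33 and an unadjusted p of 0.0133, which ranked it 104 of 15271 genes, yet the adjusted p was 1.00 (edgeR). Without each library of these groups in turn the log2 fold change stayed between -1.70 and -1.20, with unadjusted p from 0.00781 to 0.0459.
The other groups lay between or across these. The healthy control libraries measured 4.52, 0.76, 1.83 and 0.95 CPM, semaglutide libraries 1.41, 1.55, 1.26, 2.47 and 1.23, and PYY libraries 4.39, 1.64, 3.43 and 1.17. The order of means was saline 3.05, PYY 2.66, healthy 2.01, semaglutide 1.58 and combination 1.12 CPM, and neighbours overlapped throughout. Against MetOP saline, semaglutide alone gave -0.94 ± 0.53 (unadjusted p = 0.0897) and PYY alone -0.20 ± 0.56. Against PYY, the combination was at -1.25 ± 0.56 (unadjusted p = 0.0360, adjusted p = 0.768), and against semaglutide at -0.50 ± 0.53. The value against PYY was no longer under that unadjusted threshold without PYY libraries A215 (-0.96) or A219 (-1.16), or combination libraries A251 (-1.19), A253 (-1.07) or A320 (-1.18). The interaction was -0.30 ± 0.77. MetOP saline was 0.59 ± 0.57 above the healthy control, and 1.37 (unadjusted p = 0.0320, adjusted p = 0.693) when the highest healthy library, A387, was left out.
Cell type marker lists also differed between the combination and MetOP saline, in both directions. Fitted values were higher with the combination for 13 of 14 skeletal muscle markers (median log2 fold change 0.28). They were also higher for 6 of 8 endothelial (0.28), 6 of 8 neutrophil (0.17), 5 of 7 B cell (0.10) and 5 of 6 T and NK cell markers (0.58). For the combination against MetOP saline, 9 of 10 osteoblast markers had lower fitted values (median log2 fold change -1.35). So had 8 of 8 osteoclast (-1.94), 7 of 7 chondrocyte (-2.59) and 7 of 8 macrophage markers (-0.49). Lower too were 9 of 9 erythroid (-0.29), 6 of 9 fibroblast (-0.40) and 7 of 9 adipocyte markers (-0.51). All tested genes had a median of 0.02. Summed osteoblast markers ran from 150.0 to 1405 CPM with the combination and from 381 to 6885 with saline. Summed osteoclast markers ran from 14.1 to 144 CPM and from 49.5 to 711, and summed chondrocyte markers from 7.79 to 402 and from 29.0 to 3894. The osteoclast marker Ocstamp and the chondrocyte marker Matn1 were at 0 in all combination libraries. Matn1 was also at 0 in all healthy control libraries, where summed chondrocyte markers ran from 9.94 to 2999 CPM with a median of 39.8. That median was 31.7 CPM with the combination and 1345 with saline. The part of these markers in the Hsd11b1 difference was not tested. With the mean level of muscle markers as a covariate the Hsd11b1 value was -1.44. Hsd11b1 was nearly uncorrelated with that level over all libraries (r = -0.02), and no other marker list was used as a covariate.

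Fkbp5, the immunophilin that lowers the receptor's affinity for hormone and is among its most sensitive targets, varied widely within groups. MetOP saline libraries measured 13.7, 6.35, 26.7, 23.5 and 8.11 CPM, healthy libraries 18.5, 7.23, 10.8 and 4.86, and semaglutide libraries 9.35, 9.36, 13.97, 9.23 and 8.08. PYY libraries measured 10.4, 7.95, 15.8 and 7.09 CPM and combination libraries 8.89, 4.43, 13.2, 18.8 and 16.1. The means ran from 15.7 ± 9.09 in MetOP saline to 9.998 ± 2.29 with semaglutide, and all groups overlapped. MetOP saline was 0.59 ± 0.44 above the healthy control, and semaglutide and PYY were at -0.65 ± 0.41 and -0.60 ± 0.44 against saline, each with an interval that includes 0. The combination was at -0.35 ± 0.41. Without healthy library A387 the model value became 1.03 (unadjusted p = 0.0361, adjusted p = 0.693), and without saline library A226 the semaglutide value became -0.85 (unadjusted p = 0.0491, adjusted p = 0.394).

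Tsc22d3, also called GILZ, carries part of the anti-inflammatory action of glucocorticoids and was at nearly the same mean in every group. MetOP saline was 59.8 ± 9.59 CPM and the healthy control 59.7 ± 3.24 (SD), with a log2 fold change of 0.00 ± 0.35. Healthy libraries measured 56.7, 60.0, 58.0 and 64.1 CPM and saline libraries 56.5, 63.7, 74.2, 55.7 and 48.9. Semaglutide library A238 (107.5 CPM) and PYY library A215 (134.4 CPM) stood far above the rest of their groups, which ran from 38.3 to 53.7 and from 30.4 to 49.3. The combination libraries ran from 33.5 to 71.6 CPM. Against MetOP saline the log2 fold changes were -0.01 ± 0.33 for semaglutide, 0.07 ± 0.35 for PYY and -0.12 ± 0.33 for the combination. Without PYY library A215 the PYY value was -0.54 (unadjusted p = 0.0800), and without semaglutide library A238 the semaglutide value was -0.32.

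Sgk1 was the member with the closest agreement between libraries of a treated group. Semaglutide libraries measured 14.6, 15.7, 14.1, 14.3 and 12.7 CPM, and MetOP saline libraries 21.2, 15.3, 22.8, 27.2 and 21.9. Of the 5 saline libraries 4 lay above every semaglutide library, and saline library A226 lay within their range. The log2 fold change was -0.60 ± 0.25, with a 95% interval of -1.11 to -0.09, an unadjusted p of 0.0229 and an adjusted p of 0.394 (edgeR), and it was -0.51 with an unadjusted p of 0.0646 without saline library A232.
PYY libraries measured 30.7, 26.5, 28.5 and 12.6 CPM, so that 3 of 4 lay above all semaglutide libraries and library A220 below them. The difference between semaglutide and PYY was -0.78 ± 0.26 (unadjusted p = 0.00613, adjusted p = 0.169), and without library A220 it was -0.998, with an adjusted p of 0.0239, the 1 setting tried in which a member was called. Without that library 1021 of 15717 tested genes (6.50%) were called in this comparison, against 1 of 15271 with it, so the call is not particular to Sgk1. Healthy libraries measured 30.1, 14.1, 22.9 and 15.8 CPM and combination libraries 16.7, 15.0, 17.8, 22.2 and 29.3. The means were 24.6 for PYY, 21.7 for saline, 20.7 for healthy, 20.2 for the combination and 14.3 for semaglutide, and neighbours overlapped. The combination was at 0.50 ± 0.25 against semaglutide (unadjusted p = 0.0538, adjusted p = 0.816) and at -0.10 ± 0.25 against MetOP saline, and MetOP saline was at 0.06 ± 0.26 against the healthy control.
Markers of several cell types moved with Sgk1 under semaglutide. Against MetOP saline, fitted values were lower for 10 of 10 osteoblast (median log2 fold change -2.33), 8 of 8 macrophage (-1.22) and 8 of 9 fibroblast markers (-1.04). They were also lower for 9 of 9 erythroid (-1.57), 8 of 8 osteoclast (-2.08) and 7 of 7 chondrocyte markers (-5.89). They were higher for 14 of 14 skeletal muscle markers (0.73), beside a median of -0.04 over all tested genes. Summed fibroblast markers ran from 107 to 194 CPM with semaglutide and from 196 to 707 with saline, and summed macrophage markers from 10.3 to 44.7 and from 43.3 to 75.4. Summed chondrocyte markers ran from 7.49 to 63.0 CPM with semaglutide and from 29.0 to 3894 with saline. Matn1 was at 0 in all semaglutide libraries, as in all healthy control libraries. No macrophage, fibroblast or osteoblast marker was at 0 throughout either group. Their part in the Sgk1 difference was not tested. With the mean level of muscle markers as a covariate the Sgk1 value was -0.56 (unadjusted p = 0.0288, edgeR). In that setting 10.6% of all tested genes were under an unadjusted p of 0.05.

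Zbtb16, the zinc finger factor PLZF that glucocorticoids induce in bone progenitors and other cells, had few counts in many libraries, from 0 in 3 of them to 41 to 99 in the semaglutide libraries and 194 in PYY library A220. Semaglutide libraries measured 2.0, 3.46, 3.77, 1.35 and 2.62 CPM and MetOP saline libraries 0.10, 1.31, 2.81, 0.25 and 1.51. Healthy libraries measured 0, 0.25, 1.23 and 0 CPM, where the 0 counts allow up to 0.107 and 0.178 CPM. PYY libraries measured 0.61, 0.31, 1.33 and 3.84 CPM and combination libraries 0.38, 0.97, 1.20, 1.54 and 0, the last allowing up to 0.0942. The highest mean was that of semaglutide (2.64 ± 1.00) and the lowest that of the healthy control (0.372 ± 0.586), and the groups tested against each other overlapped. The log2 fold change was 1.66 ± 1.22 for MetOP saline against the healthy control, with a 95% interval of -0.87 to 4.18, and it was 3.71 (unadjusted p = 0.0184, adjusted p = 0.751) without healthy library A390. Semaglutide was at 1.15 ± 1.10 and the combination at -0.53 ± 1.09 against saline, and the combination at -1.68 ± 1.11 against semaglutide. For this last comparison limma voom gave -2.62 with an unadjusted p of 0.0231 and an adjusted p of 0.668.

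Dusp1, the phosphatase MKP-1 that switches off stress kinases, was the most abundant member per length and showed no difference larger than its spread. Healthy libraries measured 30.7, 22.3, 58.6 and 39.0 CPM and MetOP saline libraries 43.5, 58.0, 38.8, 55.2 and 30.4. Semaglutide libraries measured 48.6, 35.3, 57.4, 39.8 and 38.2 CPM, PYY libraries 60.2, 38.8, 49.8 and 40.6, and combination libraries 59.8, 36.5, 28.8, 29.9 and 39.1. All groups overlapped over most of their range. The log2 fold changes against MetOP saline were -0.04 ± 0.26 for semaglutide, 0.07 ± 0.27 for PYY and -0.22 ± 0.26 for the combination, and MetOP saline was at 0.26 ± 0.27 against the healthy control.

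Klf9, a Krüppel-like factor induced by both glucocorticoid and thyroid hormone, had its highest mean with PYY (16.9 ± 8.41 CPM) and its lowest in the healthy control (8.41 ± 3.28). MetOP saline libraries were close together at 10.6, 9.71, 9.69, 9.23 and 13.0 CPM, and healthy libraries measured 11.6, 10.03, 7.99 and 4.03. Semaglutide libraries measured 20.1, 13.9, 15.3, 9.32 and 14.8 CPM and PYY libraries 28.6, 8.58, 14.9 and 15.6. Of these 4 of 5 and 3 of 4 lay above every saline library. Combination libraries measured 14.1, 14.5, 6.27, 14.5 and 5.47 CPM, with 3 above all saline libraries and 2 below. PYY was at 0.70 ± 0.35 (unadjusted p = 0.0547, adjusted p = 1.00, edgeR) and semaglutide at 0.49 ± 0.33 against saline, while the combination was at 0.07 ± 0.33. The interaction was -1.12 ± 0.48, with a 95% interval of -2.11 to -0.14, an unadjusted p of 0.0275 and an adjusted p of 0.999. Without PYY library A215 the PYY value was 0.40 and the interaction -0.80 (unadjusted p = 0.0958). It was -1.01 (unadjusted p = 0.0528) without semaglutide library A238 and -0.97 (unadjusted p = 0.0530) without combination library A253. With the mean level of muscle markers as a covariate the PYY value was 1.03 (unadjusted p = 0.000873, edgeR). The interaction in that setting was -1.28 (unadjusted p = 0.00160, edgeR), and neither value passed an adjusted p of 0.05. For PYY against MetOP saline 6.07% of all tested genes were then under an unadjusted p of 0.05, and 0 were called.
For PYY against MetOP saline, fitted values were higher for 8 of 8 endothelial markers (median log2 fold change 1.03) and 9 of 9 fibroblast markers (1.02), and lower for 13 of 14 skeletal muscle markers (-0.67), 8 of 8 neutrophil markers (-1.34) and 9 of 9 erythroid markers (-0.81). The median over all genes was -0.01. Summed endothelial markers ran from 148 to 457 CPM with PYY and from 121 to 189 with saline, and summed neutrophil markers from 170 to 802 and from 656 to 1320. The neutrophil marker Ltf was at 0 in both groups. Apart from the muscle covariate, their part in the Klf9 values was not tested.

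Cdkn1a, the cell cycle inhibitor p21 that both glucocorticoids and p53 raise, was uneven within groups. Healthy libraries measured 20.8, 8.42, 14.01 and 11.8 CPM and MetOP saline libraries 10.9, 10.7, 12.4, 10.6 and 16.1. PYY libraries measured 24.9, 5.89, 5.65 and 5.25 CPM, with library A215 high and the other 3 below all saline libraries. Semaglutide libraries measured 12.6, 10.2, 26.6, 22.5 and 9.38 CPM and combination libraries 13.9, 18.8, 17.7, 11.98 and 3.68, spanning the saline range on both sides. The log2 fold changes against MetOP saline were 0.43 ± 0.44 for semaglutide, -0.22 ± 0.46 for PYY and 0.12 ± 0.44 for the combination, and MetOP saline was at -0.18 ± 0.46 against the healthy control. Without PYY library A215 the PYY value was -1.04 (unadjusted p = 0.0202, adjusted p = 1.00) and semaglutide against PYY was 1.45 (unadjusted p = 0.00227, adjusted p = 0.255).

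The receptor's partners and further targets were taken from fixed lists, and no gene of any list was called at an adjusted p under 0.05 in any of the 8 comparisons (edgeR). Counts at an unadjusted p under 0.05 are to be read against the shares over all genes given above, and the lists were drawn up with earlier results of these data known. Every comparison with MetOP saline uses the same 5 saline libraries, so opposite values for the model and a treatment are not independent. Receptor chaperones, which hold Nr3c1 ready to bind hormone, had 12 tested members. With semaglutide 11 of 12 had higher fitted values than with saline (median 0.32), 2 at that p, and against PYY 11 of 12 (median 0.56), 6 at that p. Fkbp4, the immunophilin that carries the receptor to the nucleus in place of Fkbp5, measured 97.9 ± 19.4 CPM with semaglutide and 62.1 ± 11.7 with saline (0.66 ± 0.31, unadjusted p = 0.0473), and its ranges of 68.9 to 119.5 and 47.5 to 77.4 overlapped. Cdc37, a co-chaperone of Hsp90, was at 0.47 ± 0.22 (unadjusted p = 0.0388). In MetOP saline against the healthy control 9 of 12 had lower values (median -0.16), with Cdc37 at -0.43 ± 0.23 and Hsp90aa1, an Hsp90 gene, at 0.45 ± 0.32. With PYY 10 of 12 had lower values (median -0.20), led by Stip1 (-0.49 ± 0.25) and Ahsa1 (-0.41 ± 0.24), and with the combination 11 of 12 higher ones (median 0.09), led by Cdc37 (0.41 ± 0.22) and Ppp5c (0.22 ± 0.24).

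Coregulators, which the bound receptor recruits to chromatin, had 13 tested members and split in both directions. Ep300, an acetyltransferase, was at 0.69 ± 0.24 in MetOP saline against the healthy control (unadjusted p = 0.00879), and Nrip1, a corepressor, at 0.66 ± 0.28 (unadjusted p = 0.0274). These were the 2 of 13 under that p, with 9 of 13 higher and a median of 0.19. Ep300 ran from 14.5 to 24.4 CPM in saline and from 10.5 to 12.3 in healthy libraries, with no overlap. Of all tested genes 2.78% did not overlap in this comparison, and Ep300 was named for the smallest p of its list. Nrip1 was at -0.55 ± 0.26 against saline with semaglutide, -0.48 ± 0.28 with PYY and -0.55 ± 0.26 with the combination. These 3 comparisons share the same 5 saline libraries. In them 7, 4 and 7 of 13 coregulators had higher values, with medians of 0.04, -0.04 and 0.01.

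Genes of steroid supply and the sister receptors had 8 of 13 members past the filter on low counts. In MetOP saline against the healthy control 7 of 8 had higher values (median 0.85), 2 at that p, and with the 3 treatments 3, 2 and 2 of 8 were higher than with saline (medians -0.05, -0.42 and -0.34). Akr1c14, which inactivates steroids, measured 21.8 ± 9.44 CPM in MetOP saline, 10.9 ± 2.91 in the healthy control and 7.57 ± 3.29 with semaglutide. It was at 1.00 ± 0.42 for the model (unadjusted p = 0.0256) and -1.52 ± 0.39 for semaglutide (unadjusted p = 0.000784, adjusted p = 0.371). Its saline and semaglutide libraries did not overlap (13.9 to 37.7 and 4.78 to 12.4). The same held for 4.47% of all tested genes, and Akr1c14 was named for the smallest p of its list there. Akr1c14 was at -0.72 ± 0.41 with PYY and -0.38 ± 0.39 with the combination. These values for Akr1c14 all rest on the same 5 saline libraries, which enter the model and treatment values with opposite sign. The steroid reductase genes Srd5a3 and Srd5a1 were at -0.73 ± 0.40 with semaglutide and -0.93 ± 0.73 with the combination. Abcb1a and Abcb1b, which pump steroids out of cells, had few reads. Abcb1a had 0 counts in 4 of 4 healthy libraries and counts in 3 of 5 saline libraries, with at most 28, and Abcb1b had counts in 4 of 4 PYY libraries, with 6 to 36, and in 1 of 5 saline libraries, so no fold is given for either. Abcb1b too had 0 counts in 4 of 4 healthy libraries. Both genes are part of the count and median of the model above, where Abcb1a is 1 of the 2 at that p. Their fitted values there depend on the prior count.

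Other induced targets had 38 of 40 members tested and showed no common direction. Values were higher for 18 of 38 in MetOP saline against the healthy control, and for 21, 21 and 25 of 38 with semaglutide, PYY and the combination against saline, with medians of -0.03, 0.05, 0.08 and 0.16. Per1, a clock gene with a known receptor site, was at 0.89 ± 0.40 in the model (unadjusted p = 0.0371) and measured 14.5 ± 2.62 CPM in saline and 7.83 ± 3.30 in healthy libraries. Cited2, a transcriptional coregulator, was at -0.60 ± 0.29 (unadjusted p = 0.04997). With semaglutide 5 of 38 were lower at that p, led by Rasd1, a small GTPase first found as dexamethasone-induced, at -1.97 ± 0.58 (unadjusted p = 0.00227, adjusted p = 0.371), and Cdkn1c, the cell cycle inhibitor p57, at -2.23 ± 0.71. Cdkn1c was at -1.66 ± 0.69 and the metallothionein Mt2A at -1.34 ± 0.80 with the combination. With PYY the leading genes were Fam107a (0.71 ± 0.31) and Bcl6, a transcriptional repressor (-0.53 ± 0.25).

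Inflammatory genes that glucocorticoids lower were mostly scarce, with 13 of 18 tested. Values were higher for 9 of 13 in the model (median 0.62) and for 5, 6 and 4 of 13 with semaglutide, PYY and the combination (medians -0.70, -0.17 and -0.37). These medians include genes at 0 in a whole group, whose fitted values depend on the prior count. Ptgs2, the inducible cyclooxygenase, had 0 counts in 4 of 4 healthy libraries and 10 to 47 counts in all 5 saline libraries. The chemokine gene Cxcl10 had 0 counts in 5 of 5 saline libraries and at most 20 with semaglutide, 13 with PYY and 37 with the combination, and Cxcl1 had at most 1 count with the combination and at most 20 with saline. The adhesion genes Vcam1 and Icam1 were at -0.85 ± 0.48 with semaglutide and 1.77 ± 0.77 with PYY.

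Bone genes known to respond to glucocorticoids were all tested, 15 of 15. In the model 9 of 15 had higher values (median 0.14), led by the collagenase gene Mmp13 (1.13 ± 0.90) and Tnfrsf11b, which encodes the osteoclast inhibitor osteoprotegerin (1.51 ± 1.23). With semaglutide 14 of 15 were lower than with saline (median -1.92), 8 at that p, led by Mmp13 (-3.53 ± 0.92, unadjusted p = 0.000840, adjusted p = 0.371) and the alkaline phosphatase gene Alpl (-2.42 ± 0.70). With the combination 14 of 15 were lower (median -0.86), 4 at that p, led by Mmp13 (-2.42 ± 0.87) and the collagen gene Col1a2 (-1.91 ± 0.80). With PYY 12 of 15 were higher (median 0.11), with the RANK ligand gene Tnfsf11 at 1.299 ± 1.415 and the Wnt target Axin2 at -0.83 ± 1.03. Several of these genes mark osteoblasts, whose marker list is given above.

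For Cdkn1a, Dusp1 and Klf9 the neighbouring pathways are p53 targets, immediate early genes and clock genes. Of 15 p53 targets, 5 had higher values in the model and 6, 6 and 8 with semaglutide, PYY and the combination (medians -0.05, -0.28, -0.06 and 0.01). Phlda3 led in each of the 3 treatments, at 0.88 ± 0.30, 0.88 ± 0.31 and 0.78 ± 0.30 against the shared saline libraries. Mdm2, the p53 inhibitor, was at 0.42 ± 0.18 with semaglutide, Gadd45a at -0.85 ± 0.31 with PYY, Sesn2 at -0.60 ± 0.47 with the combination, and Tp53inp1 and Ei24 at 1.74 ± 0.82 and -0.50 ± 0.33 in the model.
Of 20 immediate early genes, 16 had higher values in MetOP saline than in the healthy control (median 0.34), 4 at that p, led by the AP-1 genes Fosl2 (2.19 ± 0.66, unadjusted p = 0.00289) and Junb (1.16 ± 0.36, unadjusted p = 0.00357), both with an adjusted p of 0.631. With semaglutide 12 of 20 were lower than with saline (median -0.33), 4 at that p, led by Myc (-1.20 ± 0.35) and the phosphatase Dusp6 (-1.22 ± 0.46). With PYY 12 of 20 were higher (median 0.20), with Egr1 at 0.62 ± 0.30 and Ier2 at 0.66 ± 0.40, and with the combination 12 of 20 lower (median -0.01), with Fos at -0.59 ± 0.45 and Junb at -0.41 ± 0.33. Of 16 clock genes, 8 had higher values in the model and 13, 7 and 14 with the treatments (medians 0.04, 0.25, -0.15 and 0.12). Per1 was at 0.45 ± 0.37 with the combination. Cry2 was at -0.53 ± 0.26 in the model and 0.45 ± 0.24, 0.52 ± 0.26 and 0.21 ± 0.24 with the treatments. These Cry2 values share the saline libraries, which enter the model and treatment values with opposite sign. Clock was at 0.46 ± 0.24 with semaglutide, and the clock repressor gene Ciart at -2.31 ± 0.90 with PYY.

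The members did not vary as a single block across the 23 libraries. Correlations of log2 CPM are given as descriptions, since libraries share groups, cell mix and scaling. The closest pairs were Sgk1 with Fkbp5 (Pearson r = 0.61, Spearman rho = 0.59), Nr3c1 with Klf9 (0.59 and 0.67), Hsd11b1 with Sgk1 (0.58 and 0.56), Tsc22d3 with Cdkn1a (0.53 and 0.42) and Zbtb16 with Klf9 (0.52 and 0.56). Without the 2 libraries farthest from the median of the first gene these became 0.62, 0.54, 0.57, 0.50 and 0.23. Without the 2 farthest from the median of the second gene they became 0.58, 0.70, 0.45, 0.36 and 0.50. The values thus depend on which libraries are left out. With group means removed they were 0.71, 0.50, 0.66, 0.54 and 0.32, so the first 4 pairs varied together within groups too. Among all genes Klf9 ranked 45 of 15270 by correlation with Nr3c1, and Nr3c1 ranked 194 with Klf9. Sgk1 ranked 69 with Hsd11b1, and Hsd11b1 ranked 1079 with Sgk1. For the closest pair, Sgk1 ranked 409 with Fkbp5 and Fkbp5 ranked 809 with Sgk1. Many other genes thus followed each of these 2 more closely. Nr3c1 itself was nearly uncorrelated with Dusp1 (-0.01) and Cdkn1a (-0.08). Sgk1 and Zbtb16 went opposite ways (-0.46). Tsc22d3 and Klf9 were at 0.44, which fell to 0.04 without semaglutide library A238 and PYY library A215. This value was 0.39 without healthy library A392 and PYY library A215, and 0.62 with group means removed.

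**Figure D4:**
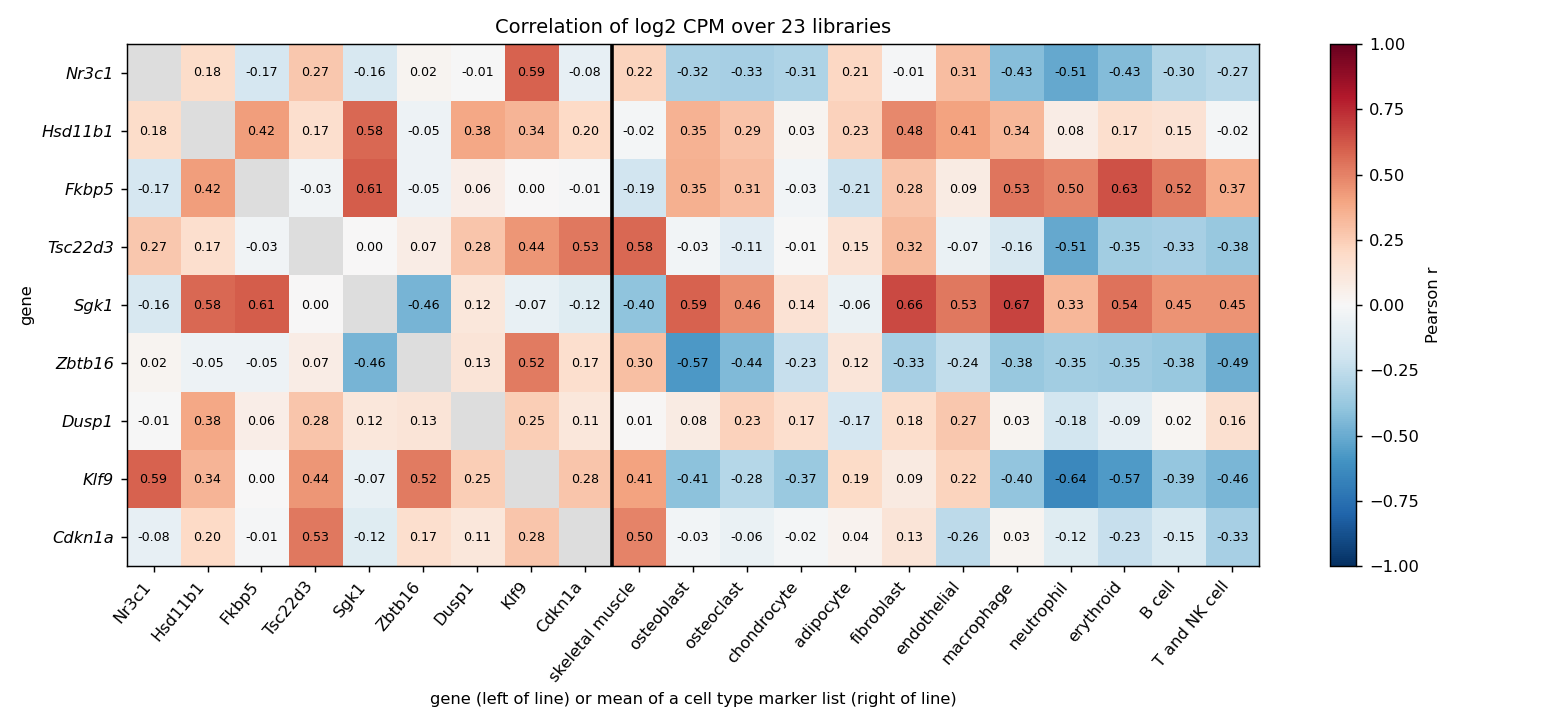
Pearson r of log2 CPM over 23 libraries between members (left of the line) and between each member and the mean log2 CPM of each cell type marker list (right), from blue (-1) to red (1). Sgk1 with Fkbp5 (0.61) and Nr3c1 with Klf9 (0.59) are the closest pairs, and Sgk1 with macrophage (0.67) and Klf9 with neutrophil markers (-0.64) the highest and lowest marker values.

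Cell type markers followed the members in distinct ways. Sgk1 was correlated with macrophage (r = 0.67, rho = 0.64), fibroblast (0.66, 0.66), osteoblast (0.59, 0.60) and erythroid markers (0.54, 0.54). Fkbp5 was correlated with erythroid markers (0.63, 0.63), and Tsc22d3 with skeletal muscle markers (0.58, 0.42), a value that fell to 0.31 without the 2 libraries farthest from the median of those markers. Klf9 went against neutrophil markers (-0.64, -0.60) and Zbtb16 against osteoblast markers (-0.57, -0.58).

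The genes of the whole table whose log2 CPM was most like each member's were also listed, 3 for each. For Nr3c1 they were Lnpep (r = 0.76), Lrrc3b (0.71) and Lmbrd1 (0.71). For Hsd11b1 they were Tnfaip1 (0.77), Dll1 (0.74) and Myct1 (0.72), and for Fkbp5 Ddb1 (0.88), Nsd2 (0.85) and Suco (0.85). Sgk1 was most like Mprip (0.88), Ggta1 (0.87) and Man1a1 (0.85). These values for Fkbp5 and Sgk1 were the highest of any member and stayed at 0.78 or above without the 2 farthest libraries.
Tsc22d3 was most like Sod3 (0.70), Prg4 (0.70) and Fbp2 (0.70), of which Sod3 and Prg4 fell to 0.53 and 0.44 without those 2 libraries. For Zbtb16 the genes were Rbm41 (0.78), Abcc1 (0.77) and Rhobtb2 (0.77), and for Dusp1 Spry4 (0.72), Gpatch8 (0.71) and Cnot6l (0.66). Klf9 was most like Hivep2 (0.84), Alkbh6 (0.80) and Vps13a (0.79), and Cdkn1a like Tppp3 (0.75), Gbp6-ps2 (0.70) and RGD1308706 (0.68). Values of other members also fell without the 2 libraries farthest from the member's median. Those of Dusp1 became 0.60, 0.59 and 0.55. Gbp6-ps2 with Cdkn1a became 0.54, Lrrc3b with Nr3c1 0.60 and Hivep2 with Klf9 0.72. Tnfaip1 with Hsd11b1 and Rhobtb2 with Zbtb16 did not fall and were each at 0.78. The correlations first given are over the same 23 libraries in each case.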

How the data were processed

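Polyadenylated RNA of 23 femur libraries in 5 groups was analysed from 2 tables that the authors deposited. Raw counts per Ensembl gene were deposited for 30562 genes. FPKM values were deposited for the same genes, made from the counts with a depth that is a fixed multiple of the size factor of each library (26.4 M per unit, a relation found in the values). Per the submitters' processing notes, mRatBN7.2 was the build named and DESeq2 (version 1.42.0) the tool named. The aligner was not given in the sources used here, and the labels' protocols describe both stranded and unstranded preparations, so antisense and overlapping genes are uncertain.

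Groups were taken from the sample labels. The labels do not say whether libraries of a group come from different animals, and every p-value therefore reflects only how these samples vary, which may be technical. Counts were tested in R 4.3.3 with edgeR 4.0.16 (TMM, filterByExpr, robust quasi-likelihood test), in a fit of all 23 libraries by group, leaving 18 degrees of freedom for the spread. There were 15271 genes and 8 comparisons, with Benjamini-Hochberg adjustment over all tested genes at 0.05. All 9 members passed the filter. Levels are CPM on TMM-scaled library sizes, and log2 CPM used a prior count of 2. The test was checked on simulated counts.

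Alternatives were RLE scaling, no mitochondrially encoded genes, no filter, a muscle marker covariate, fits of the compared groups alone, DESeq2 1.42.0, limma 3.58.1 (voom, and on log2(FPKM + 0.1)) and leaving out each library. The members, lists and tests were chosen with earlier results of these data known. Named genes are the members, the 2 smallest p of each pathway list in each comparison with MetOP saline, and the 3 highest correlations per member. A gene that this rule names is not reported here. Group levels are given with SD and fold changes with SE. Promoter windows were read from RefSeq (GRCr8).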

Additional observations from a re-analysis of the deposited data

Results flagged for a closer look

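In 45 combinations of member and group, 4 had a library whose distance from its nearest neighbour was a larger share of the group's range than Dixon's 95% critical value allows, where chance gives about 1 in 20. Semaglutide library A242 had the highest Hsd11b1 level of its group, at 2.471 CPM beside 1.55 for the next. Semaglutide library A241 had the highest Fkbp5 level, at 13.97 CPM beside 9.36. Semaglutide library A238 had the highest Tsc22d3 level, at 107.5 CPM beside 53.7. PYY library A215 had the highest Cdkn1a level, at 24.93 CPM beside 5.89, and was also the highest PYY library for Nr3c1, Tsc22d3, Klf9, Sgk1, Dusp1 and Hsd11b1.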

How the results depend on the processing

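Of 576 member fold changes recomputed under the 8 other settings, 552 kept their sign and 24 changed it. Of 765 recomputed with a library left out, 709 kept it and 56 changed it. No value larger than its SE changed sign, and 1 passed an adjusted p of 0.05, Sgk1 for semaglutide against PYY without PYY library A220, which moved the count called there from 0 to 1, while that over all genes went from 1 to 1021. At an unadjusted p under 0.05 the count of members became 2 for semaglutide against MetOP saline with the compared groups alone and with limma voom. It became 1 for PYY against MetOP saline with RLE, without mitochondrially encoded genes, without a filter, with the muscle covariate, with the compared groups alone and with DESeq2, each time through Klf9. It became 2 for semaglutide against PYY and for the combination against PYY with the muscle covariate, and 0 for the latter with the compared groups alone and with limma voom. It became 1 for the combination against semaglutide with RLE, with the compared groups alone and with DESeq2 (Sgk1), and with limma voom and limma on FPKM (Zbtb16). It became 1 for the interaction without a filter and with limma on FPKM. The share of all genes under that p moved too, to 19.3% for semaglutide against saline with the compared groups alone, to 7.69% for semaglutide against PYY with the muscle covariate, and otherwise to between 1.41% and 20.9%. The cause of these shifts was not tested. With each library left out in turn, these counts ran from 0 to 2 for MetOP saline against healthy control, semaglutide against saline, the combination against PYY and the interaction, from 0 to 1 for PYY against saline and the combination against semaglutide, and from 1 to 2 for semaglutide against PYY. They stayed at 1 for the combination against MetOP saline in all settings tried. With a library left out, 5.74% to 7.10% of all genes were under that p for MetOP saline against healthy control. The share was 7.59% to 14.3% for semaglutide against saline and 3.27% to 8.55% for PYY against saline. With 9 genes, these counts are not read as a result about the members. No paired analysis was possible because the groups share no replicate numbers. Depth limits Hsd11b1 (14 to 151 counts) and Zbtb16 (0 to 194 counts) most.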
